A study of Felis catus with 2 samples.

Results

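The genes described here encode matrix metalloproteases (MMP), the ADAM and ADAMTS metalloproteases with the ADAMTS-like proteins (ADAMTSL), and the tissue inhibitors of metalloproteases (TIMP). They were chosen by name, as rows of the expression table that carry a single gene name of these families, and where a name stood on several rows the row with the higher mean was used. This gave 59 genes on 63 rows, of the 32065 loci in the table: 18 MMP, 4 TIMP, 15 ADAMTS, 4 ADAMTSL and 18 ADAM genes. Polyadenylated RNA had been sequenced from a dissected piece of the eye that held the iridocorneal angle, the ciliary body, the trabecular meshwork and some sclera, taken from 1 cat with primary congenital glaucoma (PCG) and 1 unrelated healthy cat, both 2 months old. Affected cats of this colony, founded by Siamese cats, carry on both alleles of LTBP2 an insertion that shifts the reading frame, but the labels give no genotype, breed or sex for either cat. Each condition is 1 library, so there is no replicate error and no difference between the conditions was tested: the values describe 2 libraries only. In dissected tissue, fewer cells of a type and less RNA per cell also cannot be told apart.

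MMPs are zinc-dependent enzymes that cut collagens and other matrix proteins, and several are anchored in the cell membrane. ADAMs are membrane proteins that release growth factors, receptors and adhesion molecules from the cell surface, although some members have lost the protease activity. ADAMTS enzymes are secreted and cut proteoglycans, procollagens and microfibril components. ADAMTS-like proteins share their ancillary domains without the protease, and TIMPs block the active site of the enzymes. In the aqueous outflow pathway, turnover of the matrix by these enzymes is known to affect the resistance to outflow.

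Levels are given in FPKM, fragment numbers scaled by transcript length and by library size, which can be compared between genes. The log2 ratio is log2 of (affected + 1 FPKM) over (normal + 1 FPKM), which understates the change of low genes, and a gene was called higher or lower at a 2-fold difference on this scale, provided it reached 1 FPKM in at least 1 library. At 1 FPKM a library held about 71.2 (normal) or 67.6 (affected) fragments per kilobase of transcript. The markers of the dissected tissue were present: all 15 genes of a trabecular meshwork list and all 15 of a ciliary epithelium list reached 1 FPKM, although CPAMD8 of the second list was listed at 0 in the affected library. The 2 libraries differed in markers of several other tissues, which are given below beside the gene groups.

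Of the 59 genes, 42 reached 1 FPKM in a library. Among these, 3 were past 2-fold upwards in the affected library (7.14%, against 8.14% of all 16676 loci past the same minimum). At least 2-fold lower were 11 (26.2%, against 8.75% of all loci). The median log2 ratio of the 42 genes was -0.32, with 26 of them below 0, while the median of all loci was -0.0047 and 50.3% of them lay below 0. Of the 42, 7 reached the minimum through the normal library alone and none through the affected library alone, and 4 of the 11 lower genes (ADAM12, ADAM19, ADAM22 and ADAM23) were among those 7. Over the 35 genes at 1 FPKM or more in both libraries, 3 were higher (8.57%, against 6.42% of the loci with 1 FPKM in both) and 7 lower (20.0%, against 6.07%), and 19 had a log2 ratio below 0 (54.3%, against 49.7%). The 3 higher genes, ADAMTS4, TIMP3 and ADAMTS9, all share their listed span with other loci, as 19 of the 42 genes do in all. Of the others, alone in their span, none was higher and 9 were lower, a split made after the data were seen. Those 9 include ADAM12, ADAM19, ADAM22 and ADAM23, which reached the minimum through the normal library alone. The share over all loci alone in their span was not computed, so these counts stand without a background.

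**Figure D1:**
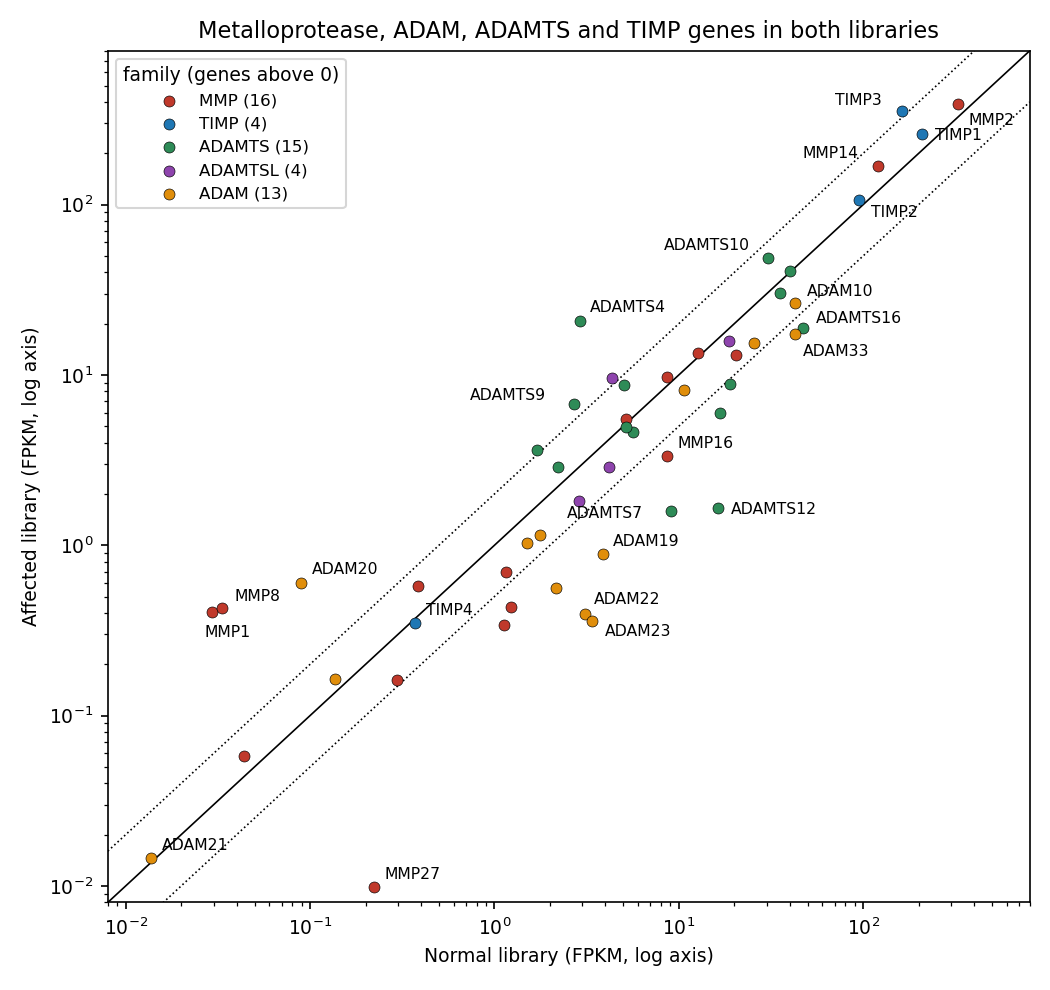
Each point is 1 gene, with its FPKM in the normal library on the horizontal and in the affected library on the vertical log axis. The solid line marks equal levels, the dotted lines a 2-fold difference without pseudocount, and genes at 0 in both libraries are left out. MMP2, MMP14 and TIMP1 to TIMP3 form the upper right end at 94.3 to 388 FPKM, ADAMTS4 stands above the lines, and ADAMTS12, ADAMTS7, ADAM22 and ADAM23 stand below them.

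The most abundant genes of the set were 2 MMPs and 3 of their inhibitors, in both libraries. MMP2, the gelatinase that degrades basement membrane collagen and denatured collagen, was listed at 325 FPKM in the normal cat and 388 FPKM in the affected cat. It ranked 253rd and 225th among all loci. MMP14, the membrane-type enzyme that activates the MMP2 proenzyme, had 119.6 and 168 FPKM, a log2 ratio of 0.48. These genes together held 88.1% of the summed MMP level in the normal cat and 92.0% in the affected cat. TIMP2, which takes part in the activation of MMP2 on the cell surface, was at 94.3 and 106 FPKM, so that the ratio of MMP14 to TIMP2 was 1.27 in the normal cat and 1.58 in the affected cat, and that of MMP2 to TIMP2 was 3.45 and 3.67. MMP2, MMP14 and TIMP2 were all within 2-fold.

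TIMP3, the inhibitor that binds to the extracellular matrix and also blocks ADAM17 and ADAMTS enzymes, differed most among the inhibitors. Its level was 162 FPKM in the normal cat and 354 FPKM in the affected cat, 2.19-fold higher, with a log2 ratio of 1.13. TIMP1 had 209 and 260.4 FPKM, a log2 ratio of 0.32. TIMP4 was low in both, at 0.372 and 0.348 FPKM. The order of the inhibitors thus differed between the libraries: TIMP1 was the most abundant in the normal and TIMP3 in the affected cat. The 4 TIMP genes summed to 465 FPKM in the normal cat and 720.5 FPKM in the affected cat, against 505 and 604 FPKM for the 18 MMP genes, so that the ratio of summed TIMP to summed MMP was 0.921 and 1.19. Without TIMP3 the inhibitors summed to 304 and 367 FPKM, below the MMP sum in both libraries. These are RNA levels, and neither protein nor enzyme activity was measured. TIMP3 is listed on chromosome B4 of felCat5 from 129575431 to 129971147, a span shared with FBXO7, which had 15.7 and 24.9 FPKM, and the deposited values give 1 sum per locus, without exons or isoforms.

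**Figure D2:**
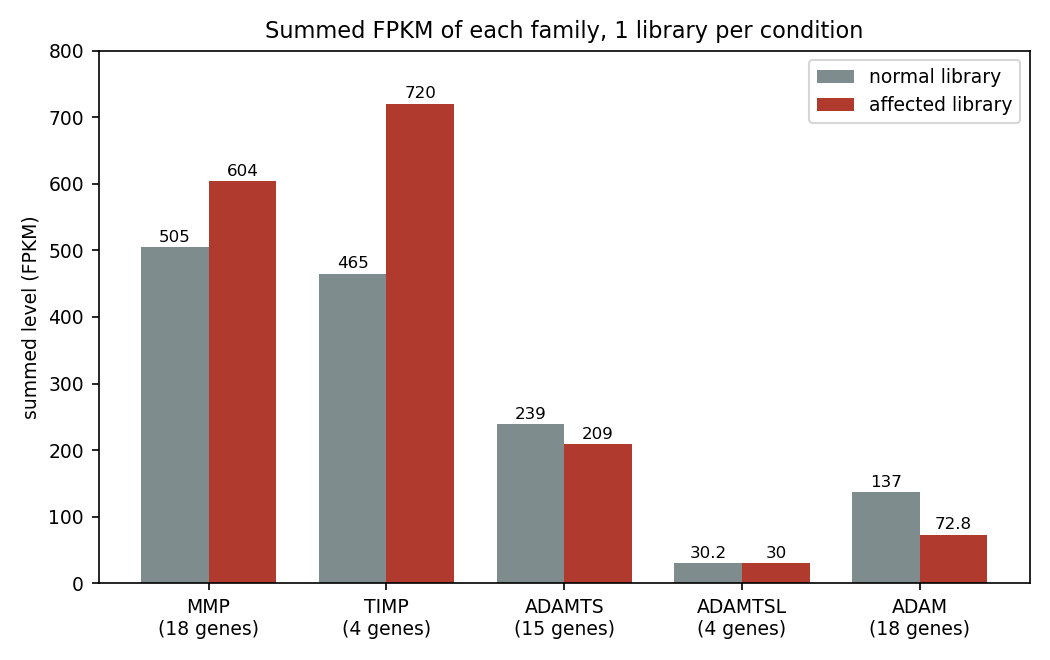
Bars give the sum of the FPKM values of each family, with the normal library in grey and the affected library in red, and the number of genes under each name. There are no error bars because each condition is 1 library. The TIMP sum was 465 and 720.5 FPKM, the MMP sum 505 and 604 FPKM, and the ADAM sum 137 and 72.8 FPKM.

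The other membrane-type MMPs had lower levels than MMP14, and 1 of them was past 2-fold. MMP16 was listed at 8.63 FPKM in the normal cat and 3.33 FPKM in the affected cat, a log2 ratio of -1.15. MMP15 had 20.4 and 13.1 FPKM and MMP24 had 5.19 and 5.52 FPKM. MMP17 and MMP25, which are held in the membrane by a glycolipid anchor, had 1.12 and 1.15 FPKM in the normal library and 0.339 and 0.694 FPKM in the affected one. Among the secreted enzymes, MMP19 was at 12.8 and 13.4 FPKM and MMP11 (stromelysin 3) at 8.66 and 9.75 FPKM. MMP9, the gelatinase best known from leukocytes and epithelium, was at 1.24 FPKM in the normal cat and 0.435 FPKM in the affected cat.

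The collagenases MMP1, MMP8 and MMP13 did not reach 1 FPKM. They lie with MMP7, MMP20 and MMP27 on chromosome D1 between 1175798 and 1509631, a stretch of 333834 bases, and the highest value of these 6 genes was 0.385 FPKM in the normal cat and 0.574 FPKM in the affected cat, both at MMP7. MMP1 was listed at 0.0295 and 0.408 FPKM and MMP8, the neutrophil collagenase, at 0.0332 and 0.431 FPKM. The normal value of MMP8 corresponds to only 2.36 fragments per kilobase of transcript and that of MMP1 to fewer, so the size of these differences was not measurable at this depth. Of 11 neutrophil markers 8 were listed and 4 reached 1 FPKM, of which S100A8, S100A9 and S100A12 were past 2-fold upwards (against 8.14% of all loci). The other 4 listed, CSF3R, CXCR2, MPO and LTF, stayed below 1 FPKM and were each lower in the affected cat, between 0.112 and 0.677 FPKM in the normal cat and between 0.0742 and 0.480 FPKM in the affected cat. The 8 markers summed to 20.1 and 63.1 FPKM, and their part in the MMP8 value was not tested. MMP13 had 0.295 and 0.162 FPKM, and MMP27 0.223 and 0.00987 FPKM. The affected value of MMP27 corresponds to only 0.667 fragments per kilobase of transcript, so the size of its difference was not measurable either. MMP20, the enzyme of tooth enamel, and MMP23B were listed at 0 in both libraries.

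The ADAMTS enzymes, of which all 15 reached 1 FPKM in both libraries, moved in both directions and held the widest range of log2 ratios, from -2.71 to 2.49. By role, 2 of the 7 proteoglycan-cleaving enzymes were higher and none lower, and 1 of these 2 calls, ADAMTS9, is lost when its rows are summed. Lower were both enzymes that cut cartilage oligomeric matrix protein (COMP), 1 of the 2 procollagen-processing enzymes, and both ADAMTS16 and ADAMTS18. Over all loci, 8.14% were higher and 8.75% lower, and these groups are of few genes each.

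ADAMTS4, an aggrecanase, had the highest log2 ratio of the whole set. It was listed at 2.90 FPKM in the normal cat and 20.9 FPKM in the affected cat, 7.19-fold higher, with a log2 ratio of 2.49 that exceeded those of 99.2% of all loci past the minimum. For each kilobase of transcript these values correspond to 207 and 1410 fragments, and the counting error of the log2 of the plain ratio was 0.11 at 1 kilobase. ADAMTS4 is listed on chromosome F1 from 63101599 to 63126256. The library kit named in the labels does not mark the strand, so where neighbouring genes overlap, their fragments cannot be told apart. ADAMTS1, which cuts versican and aggrecan, was at 39.9 and 40.6 FPKM, so the ratio of ADAMTS4 to ADAMTS1 was 0.0727 in the normal cat and 0.515 in the affected cat.

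ADAMTS9, a versican-cleaving enzyme, was the other proteoglycanase called higher. It had 2.71 FPKM in the normal cat and 6.72 FPKM in the affected cat and a log2 ratio of 1.06. This call depends on the row. ADAMTS9 stands on 3 rows of 1 span on chromosome A2, and the other 2 rows had 3.58 and 2.17 FPKM, and 0.925 and 0.619 FPKM, both lower in the affected library. The sum of the 3 rows was 7.21 and 9.52 FPKM, a log2 ratio of 0.36. A further row of that span joins ADAMTS9 with a 5S_rRNA name and had 0.863 and 7.28 FPKM. ADAMTS5, the other main aggrecanase, stands on 2 rows of nearly equal mean, with 2.22 and 2.88 FPKM on the row used and 1.32 and 3.60 FPKM on the other. ADAMTS8 was at 5.05 and 8.72 FPKM, ADAMTS15 at 5.68 and 4.65 FPKM, and ADAMTS20 at 5.18 and 4.92 FPKM, none past 2-fold. Values of proteoglycans that these enzymes cut, chosen after they were seen, were 11.1 and 7.52 FPKM for VCAN (versican) and 1.14 and 0.0377 FPKM for ACAN (aggrecan).

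ADAMTS12 and ADAMTS7 had the lowest log2 ratios of the set. ADAMTS12 was listed at 16.4 FPKM in the normal cat and 1.65 FPKM in the affected cat, 9.94-fold lower, with a log2 ratio of -2.71. It lies on chromosome A1 from 211990018 to 212323725 and shares this span with no other locus. ADAMTS7, which shares its listed span with TBC1D2B, had 9.12 and 1.58 FPKM, 5.77-fold lower, with a log2 ratio of -1.97. These closely related enzymes are the ADAMTS members best known for cutting COMP. COMP itself, named after its values were seen, was listed at 0.748 and 4.17 FPKM.

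ADAMTS16 was the most abundant ADAMTS gene of the normal library, with 47.1 FPKM, and had 19.0 FPKM in the affected one, a log2 ratio of -1.27. Its closest relative ADAMTS18, in which variants cause microcornea with retinal degeneration in humans, had 16.7 and 6.01 FPKM, a log2 ratio of -1.34. ADAMTS2, the enzyme that removes the amino-terminal propeptide of fibrillar procollagens, had 18.9 and 8.81 FPKM, a log2 ratio of -1.02. ADAMTS14, of the same activity, had 35.3 and 30.1 FPKM and was not past 2-fold. ADAMTS13, which cuts von Willebrand factor, had 1.69 and 3.61 FPKM, a log2 ratio of 0.77.

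Several of these genes are known from inherited disease of the human lens, zonule or anterior segment. ADAMTS10, a fibrillin-binding enzyme of Weill-Marchesani syndrome, was the most abundant ADAMTS gene of the affected cat, at 30.5 FPKM in the normal cat and 48.5 FPKM in the affected cat and a log2 ratio of 0.65. LTBP2, which in humans is linked to features of the same syndrome, had 16.7 and 54.8 FPKM. ADAMTS17, of a related syndrome, stands on a row joined with Ensembl identifiers and so lies outside the chosen set, with 39.8 and 35.6 FPKM on that row. ADAMTSL4, the microfibril protein of isolated ectopia lentis, had 18.7 and 15.7 FPKM. ADAMTSL1 had 4.20 and 2.89 FPKM and ADAMTSL3 had 2.87 and 1.83 FPKM. The remaining ADAMTS-like gene, ADAMTSL5, a fibrillin-binding protein, was at 4.37 and 9.53 FPKM, just under the threshold with a log2 ratio of 0.97. REEP6, listed with the same span as ADAMTSL5 on chromosome A2, had 42.5 and 98.9 FPKM. The 4 ADAMTSL genes summed to 30.2 FPKM in the normal cat, and the affected sum was 0.994-fold of it.

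**Figure D3:**
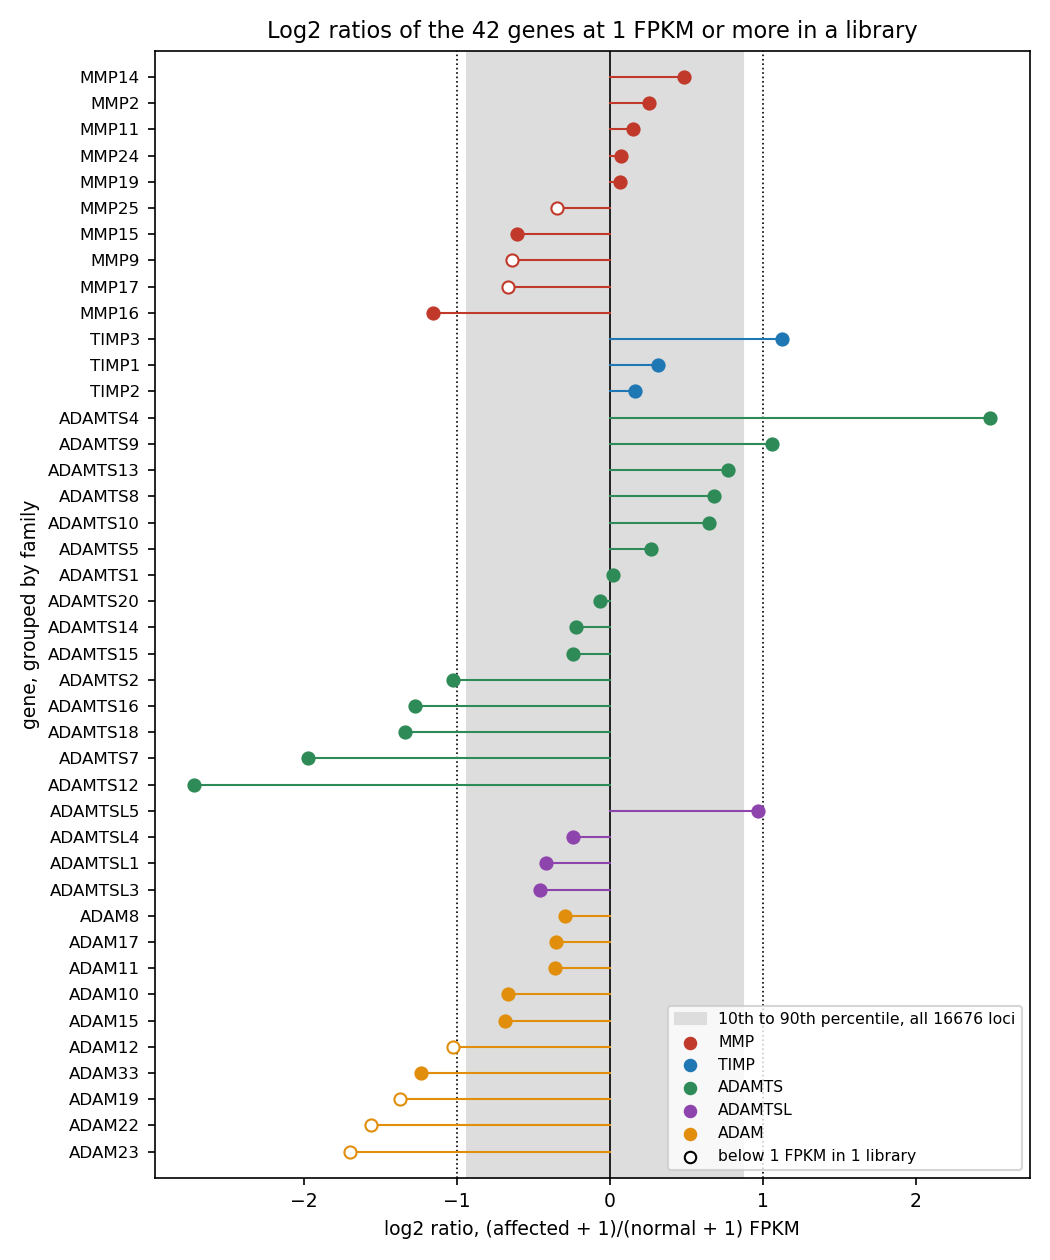
The log2 ratio of each of the 42 genes at 1 FPKM or more in at least 1 library is shown by family, with open symbols for genes below 1 FPKM in 1 library, dotted lines at 2-fold, and a grey band from the 10th to the 90th percentile of all 16676 loci (-0.93 to 0.87). All 10 ADAM genes shown lie below 0, 4 of them below 1 FPKM in the affected cat and ADAM9 not included because its row is joined, the 3 TIMP genes above it, and the ADAMTS genes spread from -2.71 to 2.49.

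Of 18 ADAM genes, 6 were at 1 FPKM or more in both libraries. All 6 had a log2 ratio below 0 (against 49.7% of the loci with 1 FPKM in both), and 1 of them was at least 2-fold lower (against 6.07%). A further 4, ADAM12, ADAM19, ADAM22 and ADAM23, reached 1 FPKM through the normal library alone, so that their ratio had to lie below 0, and all 4 were past 2-fold. The sum over the 18 genes was 137 FPKM in the normal cat and 72.8 FPKM in the affected cat, 1.88-fold lower. ADAM9 lies outside this set because its row also carries an Ensembl identifier. It had 43.6 FPKM in the normal cat and 63.0 FPKM in the affected cat, so with the joined row the most abundant ADAM gene differs in the other direction, and the log2 ratio of the summed level was -0.41 in place of -0.91.

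Among the active sheddases, ADAM10, which cuts Notch receptors and amyloid precursor protein, had 42.5 and 26.5 FPKM, a log2 ratio of -0.66. ADAM17, which releases tumour necrosis factor and ligands of the epidermal growth factor receptor, had 10.6 and 8.12 FPKM, a log2 ratio of -0.35. ADAM15 was at 25.5 and 15.5 FPKM. None of the 3 was past 2-fold. ADAM33, a protease of mesenchymal cells, had 42.5 and 17.5 FPKM, a log2 ratio of -1.23, and was the 1 ADAM gene past 2-fold that was above 1 FPKM in both libraries. ADAM19 had 3.86 and 0.886 FPKM and ADAM12 had 2.17 and 0.557 FPKM, with log2 ratios of -1.37 and -1.02. ADAM8, best known from leukocytes, was at 1.50 and 1.04 FPKM.

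Among the ADAMs without protease activity, ADAM22 and ADAM23 were lower. These neuronal receptors of the secreted protein LGI1 had 3.11 and 3.40 FPKM in the normal library and 0.393 and 0.359 FPKM in the affected one, which is 7.91-fold and 9.47-fold lower. At 1 kilobase of transcript the affected values correspond to 26.6 and 24.2 fragments, and the counting error of the log2 of the plain ratio was 0.30 and 0.31. LGI1 had 9.48 and 8.47 FPKM. The related ADAM11 had 1.76 and 1.15 FPKM. ADAM2, ADAM7, ADAM18, ADAM29 and ADAM32, several of which are known from sperm and the male reproductive tract, were listed at 0 in both libraries. The intronless genes ADAM20 and ADAM21 are near relatives that may share reads, and had 0.0896 and 0.603 FPKM, and 0.0137 and 0.0146 FPKM.

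Markers of other tissues differed between the libraries, in directions that varied from list to list. The counts stand against 8.14% of all loci at least 2-fold higher and 8.75% at least 2-fold lower. At least 2-fold lower in the affected library were 18 of 22 measured genes of corneal and conjunctival epithelium (summed level 1235 and 195 FPKM), 9 of 14 of vascular endothelium (284 and 103 FPKM), 14 of 16 of cell division (226 and 62.1 FPKM) and 10 of 14 of corneal and scleral stroma (6145 and 1669 FPKM). In the stromal list 2 genes were higher, of which COL1A2 was listed at 0 in the normal library. At least 2-fold higher were 12 of 14 photoreceptor genes (475 and 1926 FPKM), 6 of 15 of ciliary epithelium with 2 lower (2491 and 6783 FPKM) and 10 of 15 immediate early genes (178 and 874 FPKM). Of lens genes 9 of 15 were higher and 2 lower (59805 and 54107 FPKM, with CRYAA listed at 0 in the affected library), and of macrophage and leukocyte genes 4 of 14 were higher (302 and 563 FPKM). Trabecular meshwork genes, a list that includes TIMP3, had 4 of 15 higher and 4 lower (1658 and 1547 FPKM). Smooth muscle had 1 of 9 in each direction (1368 and 1208 FPKM), near the shares over all loci. Pigment cells had 3 of 9 lower (2595 and 2009 FPKM). The part of these tissues in the protease values was not tested, and with 1 library per condition disease and dissection cannot be told apart.

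Genes that act with these proteases were read from 5 further lists, whose counts stand against 8.14% of all loci at least 2-fold higher and 8.75% at least 2-fold lower. Of 24 measured inhibitors and regulators, 5 were at least 2-fold higher and 2 lower, with a median log2 ratio of 0.30. RECK, a membrane-bound inhibitor of MMPs, was lower with 13.5 and 6.03 FPKM, and THBS1 (thrombospondin 1) was 5.70-fold lower, with 1.58 FPKM in the affected cat. SPOCK1, a proteoglycan of the testican family, was higher with 27.6 and 88.9 FPKM, as were the endocytic receptor LRP2 with 10.1 and 41.2 FPKM, COL18A1 with 89.0 and 239 FPKM, and TSPAN15, a tetraspanin partner of ADAM10, with 46.1 and 107 FPKM.

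Of 8 measured genes of the plasminogen system, which activates several MMPs, 3 were lower and 1 higher, with a median log2 ratio of -0.64. SERPINE2, a serpin that inhibits plasminogen activators, had 57.4 and 13.3 FPKM, lower in the affected cat. S100A10, a cell surface receptor component for plasminogen, had 349 and 114 FPKM. The activators PLAU and PLAT had 7.44 and 3.93 FPKM, and 24.2 and 17.4 FPKM, neither past 2-fold, and SERPINI1 had 17.2 and 21.8 FPKM.

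Among 18 other secreted or membrane metalloproteases and their partners, 6 were lower and 1 higher, with a median log2 ratio of -0.64. Among the genes of carboxy-terminal procollagen processing, BMP1, a C-proteinase, had 38.6 and 11.0 FPKM, and its enhancer PCOLCE had 479 and 37.8 FPKM. The second enhancer of the list, PCOLCE2, differed in the other direction, with 5.62 and 11.3 FPKM and a log2 ratio of 0.90. The related proteinases TLL1 and TLL2 were low, with 1.23 and 0.349 FPKM, and 0.792 and 0.220 FPKM. Beside them stands ADAMTS2, the N-proteinase described above. The substrate COL1A1 had 2476 and 41.8 FPKM and COL3A1 had 415 and 12.9 FPKM, whereas COL1A2 was listed at 0 in the normal library and at 447 FPKM in the affected one, and an exact 0 in such a table can be a failed estimate. ANXA2, of the plasminogen list, which most cells use, was likewise listed at 0.0180 and 0 FPKM. CPXM2 had 135 and 11.0 FPKM, ENPEP (an aminopeptidase that cuts angiotensin) 10.6 and 2.96 FPKM, and MMEL1 8.04 and 3.48 FPKM. PAPPA2, which cuts insulin-like growth factor binding proteins, was the gene of this list that was higher, with 16.2 and 95.2 FPKM.

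Of 17 measured proteoglycan and collagen substrates, 4 were higher and 5 lower. Their median log2 ratio was -0.81, and -0.85 without COL1A2. FBN1 (fibrillin 1) had 55.8 and 242 FPKM and COL2A1 had 335 and 1203 FPKM, while FBN2 had 11.4 and 1.96 FPKM. Of 24 measured membrane proteins and ligands that ADAMs release, 3 were higher and 3 lower, with a median log2 ratio of 0.24, so these counts lie near the shares over all loci. The Notch ligand DLL1 had 15.9 and 53.7 FPKM and CXCL16 had 7.94 and 19.0 FPKM, both higher, and CDH1 (E-cadherin) had 10.1 and 3.96 FPKM, lower. NOTCH1 with 9.37 and 4.43 FPKM, CD44 with 19.8 and 9.99 FPKM and APLP2 with 126 and 209 FPKM were not past 2-fold.

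**Figure D4:**
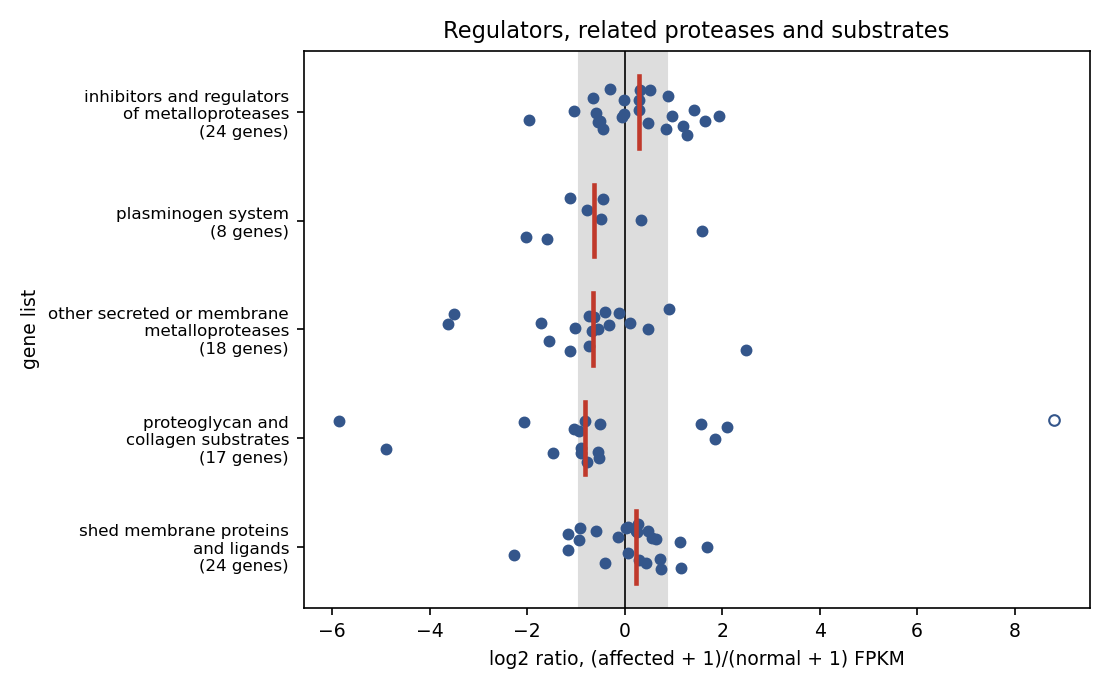
Each blue point is the log2 ratio of 1 gene at 1 FPKM or more in at least 1 library, red bars are list medians, and the grey band runs from the 10th to the 90th percentile of all loci (-0.93 to 0.87). The open symbol is COL1A2, listed at 0 in the normal library. The medians lie between -0.81 for substrates and 0.30 for inhibitors and regulators.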

How the data were processed

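The authors aligned the reads to the felCat5 build (TopHat 2.0.9, with gene predictions of Ensembl) and used Cufflinks 2.1.1 and cummeRbund 2.4.1 to calculate the deposited FPKM. The scaling between the 2 libraries is not given in the sources used here. The table holds 1 value per locus and library. Gene names were matched exactly, 4 rows of joined names were left out, and start positions were raised by 1 because the table counts from 0. Neighbouring loci often share 1 listed span, as 22 of the 59 genes do. Log2 ratios used a pseudocount of 1 and a minimum of 1 FPKM in at least 1 library, without rescaling. Because FPKM are no counts and each condition is 1 library, neither a count model nor any p-value was used.

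Depth was recovered from unnamed loci with low values: 95.6% (normal, 3093 loci) and 93.3% (affected, 2998 loci) were within 0.03 of a whole number of fragments. The error derived from it covers counting only. The log2 ratio and the depth were tested on simulated data.

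The text names the TIMPs, genes past 2-fold or with a mean of at least 10 FPKM, genes tied to inherited disease of the anterior eye, MMP2, MMP9, MMP14, ADAM10, ADAM17 and, per pathway list, up to 6 genes of the widest log2 ratio with a mean of at least 5 FPKM. Further genes were added by role after their values were seen. The set and the lists were chosen with earlier results of these data known. MMP3 was not analysed here. Some genes that the naming rule covers are not reported here. Python 3.11.15 was used with pandas 2.3.3, numpy 2.4.6 and, for the plots, matplotlib 3.10.9. The closing section gives the effect of other pseudocounts, minimums, scalings, thresholds and ways to treat repeated or joined names.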

Additional observations from a re-analysis of the deposited data

How the results depend on the processing

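Under both rescalings of the libraries, no count of genes past 2-fold changed by more than 1.5 times and no summed level changed sign. With a pseudocount of 0.1 the higher genes numbered 5 and the median log2 ratio was -0.44. With no minimum the median was 0, since the genes listed at 0 then count. Requiring a mean of 5 FPKM, the lower genes numbered 7 and the median was -0.14, fewer genes being used. At a 4-fold threshold 1 gene was higher and 1 lower. With the joined rows the log2 ratio of the summed ADAM level was -0.41, because ADAM9 was added. Without the highest gene of each family the log2 ratios of the sums were 0.27 for TIMP, -1.03 for ADAM and 0.32 for ADAMTSL, the last opposite in sign to -0.0086 with all 4 genes. Genes alone in their listed span, an alternative chosen after the data were seen, included none of the 3 higher genes (0 higher), with a median of -0.61 and sums of -1.40 for ADAM and -0.58 for ADAMTSL. Of the log2 ratios of 30 named genes, 12 moved by 0.1 or more with the smaller pseudocount, 8 with the rescaling to equal sums and 0 with the rescaling to a median of 0; summing repeated names could change 2 and moved 1, and the other settings cannot change a single gene's ratio. The call of ADAMTS9 was lost with its rows summed, and only ADAMTS1, near 0, changed sign, under a rescaling. No paired analysis was possible because there is a single library of each condition.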
